A study of Mus musculus with 9 samples.

Results

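A group of 5 genes of the endoplasmic reticulum were followed in mouse kidney, namely the folding chaperones Hsp90b1, Hyou1 and Dnajc3 and the degradation genes Ubxn2a and Fbxo6. They were chosen by name from the 489 distinct genes of both deposited tables, and all 5 were found. The tables hold only genes that the study had called as changed, 113 for 3HB against old mice and 389 for young against old mice. All 5 genes stand in the first table and 0 in the second, so their difference between 3HB and old mice is what placed them here and is given as a description. Kidney RNA came from 3 groups of 3 male ICR mice, an outbred stock. The young mice were 2 months old and untreated, the old mice were 20 months old and untreated, and the 3HB mice were 20 months old and had received 3HB. 3HB is 3-hydroxybutyrate, a ketone body, given as its sodium salt. It was dissolved at 1 g/L in the drinking water, and treatment began at 11 months. The sample labels and the study's results name kidney for the sequencing, while 1 paragraph of its methods names muscle. Of 9 proximal tubule markers, Lrp2 and Keg1 were listed, with a summed value of 792.2 or more in every mouse, and 0 of the 11 muscle markers were listed, which says little for tables limited to called genes. Values are normalized expression with 2 decimals, and whether they are TPM or FPKM is not given in the sources used here.

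The endoplasmic reticulum is the compartment in which secreted and membrane proteins are folded, and renal tubule cells, rich in membrane transporters, depend on it. Lumenal chaperones hold and fold new chains, and chains that fail are moved back to the cytosol, marked with ubiquitin and degraded by the proteasome, a route called ER-associated degradation. Unfolded chains in the lumen activate the unfolded protein response, in which the transcription factor ATF6 acts through the ER stress response element (ERSE) in chaperone promoters. Hsp90b1 encodes GRP94, the HSP90 of the lumen. Hyou1 encodes GRP170, a large relative of HSP70 that exchanges nucleotide on the chaperone BiP. Dnajc3 encodes p58IPK, a lumenal co-chaperone with a J domain. Ubxn2a encodes a cofactor of the ATPase p97 with a UBX domain, and Fbxo6 encodes an F-box protein that recognizes N-glycans on glycoproteins to be degraded.

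The promoters of Hsp90b1 and Dnajc3 are shown because they hold the ERSE, in capitals, written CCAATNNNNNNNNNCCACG and searched on both strands. They run 5′ to 3′ on the gene's strand from 250 bases before to 50 bases after the RefSeq start, on GRCm38.p6, at chr10:86705395-86705694 (minus strand) for Hsp90b1 and chr14:118937682-118937981 (plus strand) for Dnajc3.
Hsp90b1: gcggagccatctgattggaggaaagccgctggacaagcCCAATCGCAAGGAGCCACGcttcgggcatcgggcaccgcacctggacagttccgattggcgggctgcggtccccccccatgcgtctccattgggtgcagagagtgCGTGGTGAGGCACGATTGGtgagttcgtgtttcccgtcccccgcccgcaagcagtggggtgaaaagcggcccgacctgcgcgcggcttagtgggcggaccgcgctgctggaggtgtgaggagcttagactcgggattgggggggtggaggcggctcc
Dnajc3: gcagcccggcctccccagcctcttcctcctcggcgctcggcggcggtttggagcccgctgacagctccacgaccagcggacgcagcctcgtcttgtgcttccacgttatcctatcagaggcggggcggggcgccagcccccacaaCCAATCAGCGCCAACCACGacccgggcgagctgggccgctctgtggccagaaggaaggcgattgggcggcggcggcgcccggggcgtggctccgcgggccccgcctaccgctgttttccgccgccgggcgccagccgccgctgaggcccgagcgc
The Hsp90b1 promoter held 2 matches, at -212 to -194 on the gene's strand and at -107 to -89 on the other strand. The Dnajc3 promoter held 1, at -105 to -87. The element was found in promoters of 37 of 27025 genes of the RefSeq table (0.137%), and in 8 of the 40 genes with a promoter there from a list of ER chaperones and folding enzymes. No match lay in the 1 window of Ubxn2a or in the 3 windows of Fbxo6. Promoters of Hyou1 and Hsp90aa1 were not searched here. Of the 64 genes in the table for 3HB with a promoter sequence, only Hsp90b1 and Dnajc3 held the element, and of 203 genes listed only for age, 0 did. The other 3 elements were searched on both strands, ERSE-II (ATTGGNCCACG), the core of the unfolded protein response element (TGACGTGG) and the heat shock element HSE (GAA, TTC and GAA, each 2 bases apart). They were found in 0.0365%, 0.676% and 0.603% of all 32851 windows. None of the 3 was found in a window of Hsp90b1, Dnajc3, Ubxn2a or Fbxo6. The HSE, bound by the cytosolic stress factor HSF1, was found instead in Nploc4 (1 match), Chordc1 (3 matches that overlap) and both windows of Hsph1. The Hsph1 windows held the same letters on the same strand, at 36 to 48 and at 15 to 27, which may be 1 site seen from different starts. A match is a run of letters and was not tested for binding.

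**Figure D1:**
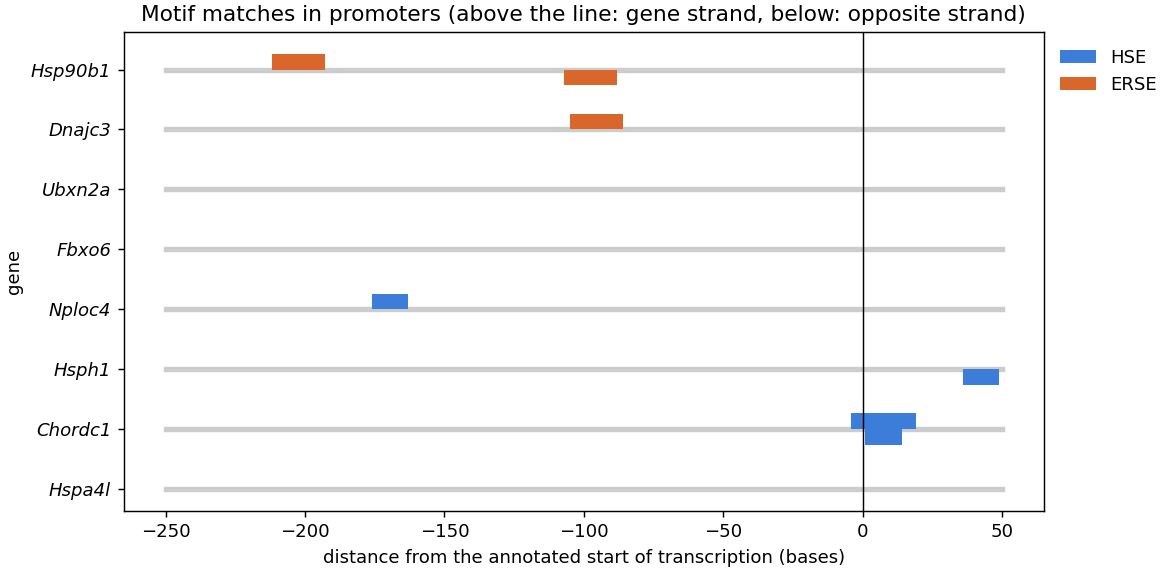
Motif matches (bars) in the first RefSeq promoter window of 8 genes, by distance in bases from the start of transcription, with bars above the line on the gene's strand and below it on the other. Hsp90b1 holds 2 ERSE matches and Dnajc3 1, while Nploc4, Hsph1 and Chordc1 hold HSE matches, and Ubxn2a, Fbxo6 and Hspa4l hold neither.

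In 3HB mice, Hsp90b1, Hyou1, Dnajc3 and Ubxn2a lay above old mice, and Fbxo6 lay below, with no overlap between the 3 mice of each group in any of the 5 genes. The means stood at 1.58 to 1.98 times the old mean for the 4 higher genes and at 0.6001 times for Fbxo6. Among all 113 genes in that table, 43 (38.1%) were higher and 58 (51.3%) lower with 3HB without overlap, so separation of the groups is common to the table and not particular to these genes. Among the 376 genes listed only for age, 7.45% were higher and 4.26% lower without overlap. The median difference over the 5 genes was 0.71 on the scale of log2(value + 1), against -0.42 over the 113 genes and 0.07 over the 376 genes. These medians follow the mix of directions, and without regard to sign the median was 0.71 over the 5 genes and 0.69 over the 113. A pseudocount of 1 was added, which makes differences of low genes smaller. A two-sided exact permutation test over mice gave p = 0.1 for each of the 5 genes, and 3 mice against 3 cannot give less. The genes were listed for this same difference in the same mice, so the test adds no support and p is a description. With mice scaled on the genes of both tables, the directions held, the median became 0.53, and Ubxn2a overlapped.

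One young mouse stood apart, and it bears on every comparison with the young group. Of the 43 genes higher with 3HB, young mouse 3 had the highest value of the young mice in 40, and of the 70 genes lower with 3HB, it had the lowest in 44. Its median difference from the old mean was 0.59 on the log2 scale over the 43 genes, whereas young mouse 1 stood at -0.50 and young mouse 2 at -0.47. The 5 genes follow this, as young mouse 3 was the highest young mouse in Hsp90b1, Hyou1, Dnajc3 and Ubxn2a and the lowest in Fbxo6. Comparisons with young mice are therefore given with and without it.

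**Figure D2:**
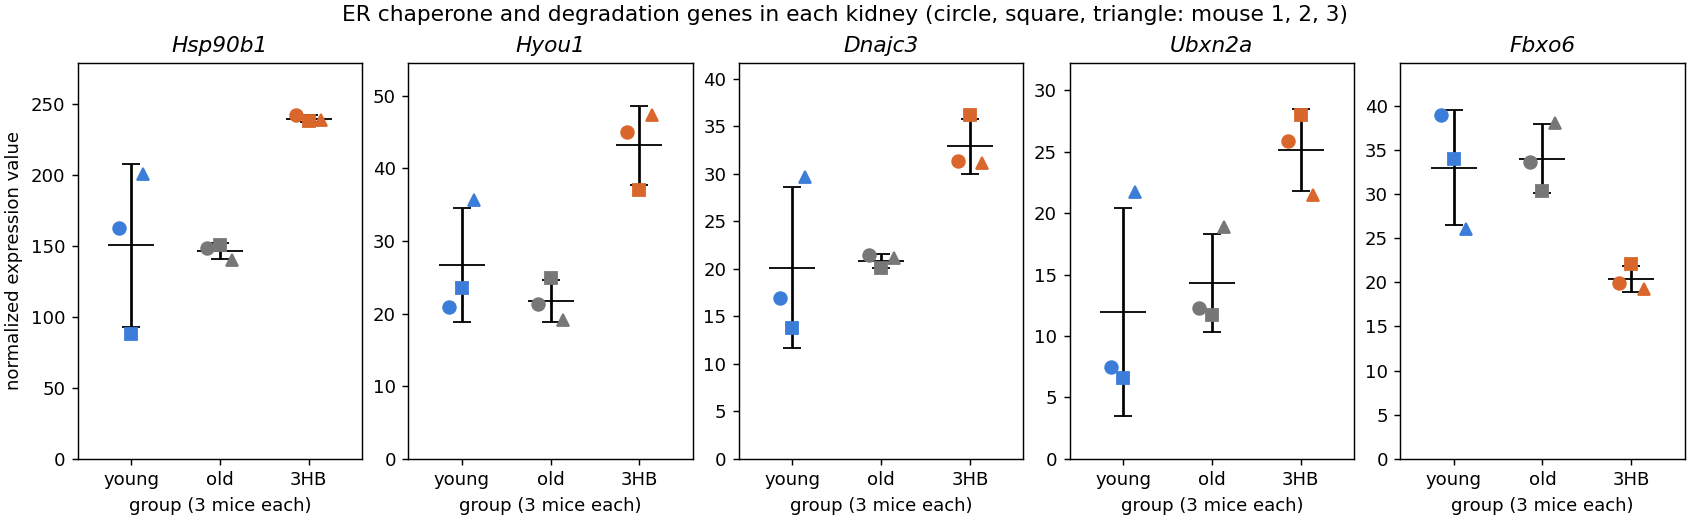
Normalized expression value (linear axis from 0) of each gene in the 3 young, 3 old and 3 3HB mice, with the horizontal line at the mean and the bar showing the SD. 3HB mice lie above old mice in the first 4 panels and below them in Fbxo6, and young mouse 3 (triangle) lies nearest to the 3HB mice among the young mice.

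Hsp90b1 (ENSMUSG00000020048) spans 86690209 to 86705509 of chromosome 10 on GRCm38, minus strand, with 13 exons in its longest transcript. Its values were 162.89, 87.72 and 200.68 in young mice, 148.60, 150.55 and 140.28 in old mice, and 242.62, 237.98 and 238.87 in 3HB mice. The 3HB mice were above every other mouse, and the old mice lay inside the range of the young. The group means were 150.4 ± 57.5 for the young, 146.5 ± 5.45 for the old and 239.8 ± 2.46 for the 3HB group (SD, n = 3 each). The difference between 3HB and old mice was 0.71 on the log2 scale (standard error 0.03), the largest of the 113 genes relative to its standard error. Another 3 annotated genes share exonic sequence with Hsp90b1, of which the transcribed pseudogene 1810014B01Rik lies on the opposite strand. Whether the counting used strand is not given in the sources used here, so reads from that locus cannot be told apart from Hsp90b1. Gm15344 and the miRNA gene Gm25745 lie on the same strand as Hsp90b1, so strand would not separate their reads.

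Hyou1 (ENSMUSG00000032115) spans 44379490 to 44392369 of chromosome 9, plus strand. It was at 20.84, 23.52 and 35.64 in young mice, at 21.35, 24.88 and 19.13 in old mice, and at 45.08, 37.04 and 47.40 in 3HB mice. The lowest 3HB mouse stood barely above young mouse 3 and well above all old mice. The means were 26.7 ± 7.89 for the young, 21.8 ± 2.90 for the old and 43.2 ± 5.44 for the 3HB group (SD, n = 3 each). The log2 difference of Hyou1 between 3HB and old was 0.96 (standard error 0.15), which ranked 14 among the 43 higher genes.

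Dnajc3 (ENSMUSG00000022136), a gene with 1 annotated transcript, spans 118937976 to 118981697 of chromosome 14, plus strand. It was at 16.87, 13.78 and 29.69 in young mice, 21.44, 20.03 and 21.10 in old mice, and 31.30, 36.21 and 31.15 in 3HB mice. Old mice lay within a narrow band, while young mouse 3 came close to the lowest 3HB mouse. The means were 20.1 ± 8.44 for the young, 20.9 ± 0.736 for the old and 32.9 ± 2.88 for the 3HB group (SD, n = 3 each). The log2 difference between 3HB and old was 0.63 (standard error 0.07), rank 37 of the 43 higher genes.

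Of the degradation genes, Ubxn2a (ENSMUSG00000020634) spans 4879032 to 4907705 of chromosome 12, minus strand. It was at 7.48, 6.60 and 21.70 in young mice, 12.27, 11.70 and 18.90 in old mice, and 25.88, 28.02 and 21.49 in 3HB mice. The values of young mouse 3 and old mouse 3 were high for their groups, and young mouse 3 overlapped the 3HB mice. The means were 11.9 ± 8.48 for the young, 14.3 ± 4.003 for the old and 25.1 ± 3.33 for the 3HB group (SD, n = 3 each). The log2 difference between 3HB and old, 0.796, had the largest standard error of the 5 genes, 0.23.

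Fbxo6 (ENSMUSG00000055401) spans 148145716 to 148152140 of chromosome 4, minus strand. It was at 39.00, 33.95 and 26.05 in young mice, 33.67, 30.36 and 38.06 in old mice, and 19.93, 22.07 and 19.26 in 3HB mice. It was the only one of the 5 genes that was lower with 3HB, and every 3HB mouse lay below every other mouse. The means were 33.0 ± 6.53 for the young, 34.03 ± 3.86 for the old and 20.4 ± 1.47 for the 3HB group (SD, n = 3 each). Its log2 value was lower in 3HB than in old mice by a difference of -0.71 (standard error 0.11), rank 27 among the 70 lower genes.

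In the values as deposited, old and young mice did not separate in any of the 5 genes. Young and old mice overlapped in 5 of 5 genes, where 11% of the 100 genes listed only for 3HB did not, and exact permutation tests gave p = 0.5 to 1. The log2 difference of old from young was 0.04 for Hsp90b1 (standard error 0.36), -0.25 for Hyou1 (0.25), 0.12 for Dnajc3 (0.32), 0.40 for Ubxn2a (0.54) and 0.06 for Fbxo6 (0.19). The overlap does not show that the groups are alike, since the standard errors reached 0.54. Without young mouse 3, old mice exceeded young mice without overlap in Dnajc3 and Ubxn2a, by 0.43 (standard error 0.14) and 0.90 (0.22), while Hsp90b1 (0.29), Hyou1 (-0.03) and Fbxo6 (-0.10) still overlapped. Without young mouse 2, Hsp90b1 was lower in old mice without overlap, by a difference of -0.30. The other 4 genes overlapped, with Dnajc3 at -0.10 and Ubxn2a at 0.11. A two-sided exact permutation test gave p = 0.1 for each of these 3 separations, the least that 3 mice against 2 allow. The outcome also depended on scaling. With mice scaled on the genes listed only for 3HB, Hyou1 alone separated, lower in old mice at -0.43. With mice scaled on the genes of both tables, all 5 genes were lower in old mice, from -1.01 for Ubxn2a to -1.66 for Hyou1, and 4 of them separated, Ubxn2a being the one that overlapped. That scaling moves old against young by 1.405, because most of those genes had been called for age.

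Compared with young mice, 3HB mice were higher without overlap in Hsp90b1, Hyou1 and Dnajc3 and lower in Fbxo6, while Ubxn2a overlapped. With mice scaled on the genes listed only for 3HB, Hyou1 fell to a difference of 0.52 and overlapped, which left 3 genes separated. Among the 100 genes listed only for 3HB, 27% were higher and 10% lower than young without overlap. The log2 differences from young were 0.75 for Hsp90b1 (standard error 0.36), 0.70 for Hyou1 (0.25), 0.75 for Dnajc3 (0.32), 1.19 for Ubxn2a (0.51) and -0.65 for Fbxo6 (0.17). The exact permutation p was 0.1 for the 4 separated genes and 0.2 for Ubxn2a. All 5 genes were listed for a difference of these same 3HB mice, so this comparison carries that selection and its p is a description. Without young mouse 3, all 5 genes were separated, and the differences were 0.998, 0.93, 1.06, 1.69 and -0.81 in the same order. Without young mouse 2, they were 0.41, 0.64, 0.53, 0.91 and -0.62, so Hsp90b1 ran from 0.41 to 0.998 with the young mouse left out, and Ubxn2a still overlapped. The directions of the 4 higher genes turned when mice were scaled on the genes of both tables, as Hsp90b1 became -0.83, Hyou1 -0.88, Dnajc3 -0.83 and Ubxn2a -0.39, while Fbxo6 became -2.23. That scaling moves 3HB against young by 1.58. The 3 comparisons share groups of mice and are not independent.

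**Figure D3:**
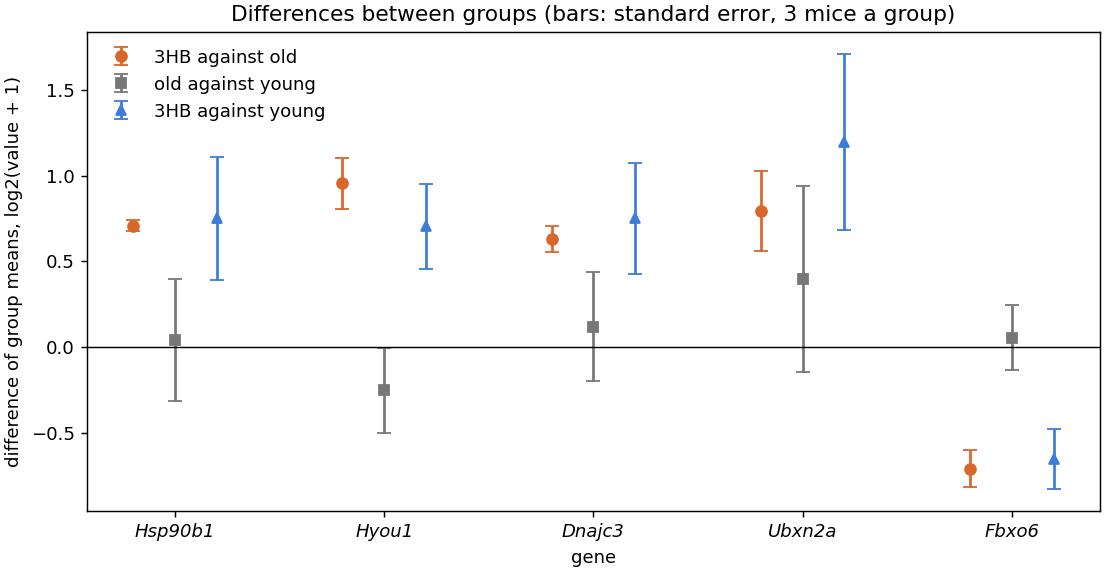
Difference of group means of log2(value + 1) for each gene in 3 comparisons, with bars showing the standard error from 3 mice a group. 3HB differs from old by 0.63 to 0.96 in 4 genes and by -0.71 in Fbxo6, whereas old against young lies between -0.25 and 0.40, with bars of up to 0.54. Values are as deposited, and with mice scaled on both tables the comparison of 3HB with young changes sign in 4 genes and old against young is below 0 in all 5.

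The spread within groups differed among the genes. In old mice the coefficient of variation was 3.72% for Hsp90b1, 13.3% for Hyou1, 3.53% for Dnajc3, 28.01% for Ubxn2a and 11.4% for Fbxo6. In young mice it ran from 19.8% for Fbxo6 to 71.1% for Ubxn2a, and in 3HB mice from 1.03% for Hsp90b1 to 13.2% for Ubxn2a. Hsp90b1 and Dnajc3 thus varied least among old mice, and each of the 5 genes varied most among young mice. Taking the values as per length, as TPM and FPKM are, Hsp90b1 was the most abundant of the 5 in each group mean and Ubxn2a was the least abundant in young and old mice. The mean of Fbxo6 was above that of Ubxn2a in old mice, at 34.03 against 14.3, and below it in 3HB mice, at 20.4 against 25.1, with Fbxo6 lower and Ubxn2a higher than in old mice.

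Other genes of the same pathway were taken from lists that were chosen with earlier results of these data known. Of 46 annotated genes for ER chaperones and folding enzymes, 3 were listed, which are Hsp90b1, Hyou1 and Dnajc3, and the others, such as Hspa5 (BiP), were not analysed here. Of 64 genes for ER-associated degradation, 3 were listed, Ubxn2a, Fbxo6 and Nploc4, with 2 higher and 1 lower with 3HB. Nploc4, which forms with Ufd1 a p97 cofactor that draws ubiquitinated proteins out of the ER, was at 16.63, 15.29 and 14.66 in old mice and at 28.60, 25.88 and 25.75 in 3HB mice. Its log2 difference was 0.75 (standard error 0.07). Of 33 genes for sensors and outputs of the unfolded protein response, 0 were listed, which says little for tables limited to 489 called genes. ER chaperone genes, on which that response also acts, were counted in the first list and not in this one. KEGG protein processing in the ER was attached to 8 listed genes, the 5 genes here and the cytosolic chaperone genes Hsp90aa1, Hsph1 and Hspa4l, and 7 of these lay above and 1 below the old mice without overlap, where 38.1% of the table's 113 genes lay above and 51.3% below.

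The cytosolic chaperone list had 4 of 35 genes in the table, Hsp90aa1, Hsph1, Hspa4l and the HSP90 co-chaperone gene Chordc1, and all 4 were higher with 3HB without overlap, as were 38.1% of the table, whose genes had all been called in this comparison. Their median log2 difference was 1.07, against 0.71 for the 3 ER chaperones, and the difference between the lists was not tested. Hsp90aa1 encodes the inducible cytosolic relative of the protein of Hsp90b1, and their ratio within a mouse does not depend on how libraries were scaled. Hsp90b1 was 1.38, 1.53 and 1.74 times Hsp90aa1 in the old mice and 1.34, 1.402 and 1.32 times in the 3HB mice, and these ranges overlapped. In the young mice the ratio was 1.87, 2.76 and 1.26, with young mouse 3 the lowest. This pair was picked after its values were seen.

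**Figure D4:**
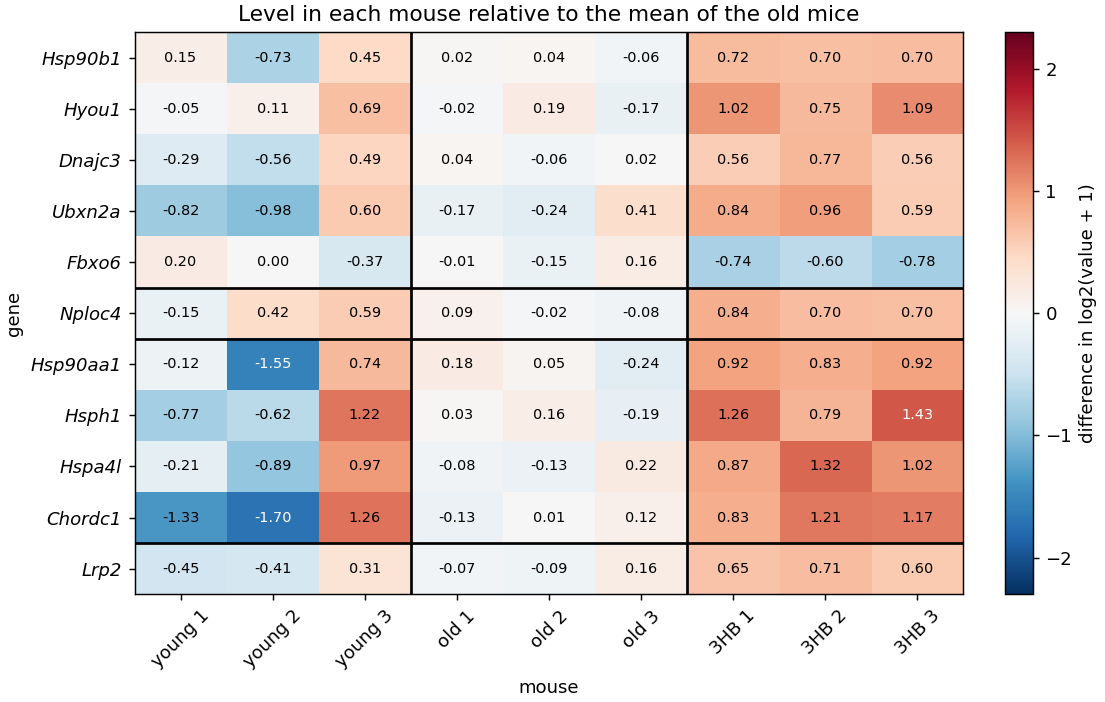
Level of 11 genes in each mouse as the difference in log2(value + 1) from the mean of the old mice (red higher, blue lower), with lines dividing the 5 genes, Nploc4, 4 cytosolic chaperone genes and Lrp2. The 3HB columns are red in all rows but Fbxo6, and young mouse 3 is closer to them in the 5 genes than young mice 1 and 2 are.

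Across the 9 mice, levels of the 4 higher genes were positively related. Pearson correlations of log2(value + 1) ran from 0.71 (Hyou1 with Ubxn2a) to 0.95 (Dnajc3 with Ubxn2a), and Fbxo6 ran opposite, from -0.75 with Ubxn2a to -0.98 with Hyou1. These values are descriptions, since the 9 mice share 3 groups and young mouse 3. The genes most like each one were searched among all 489. For Hsp90b1 they were Hsp90aa1 (0.97), the processed pseudogene Gm13835 (0.94) and Rdh10 (0.94), a retinol dehydrogenase. For Hyou1 they were the processed pseudogene Gm7049 (0.93), Hsph1 (0.92) and Nploc4 (0.91). For Dnajc3 they were Mgat5 (0.993), an N-glycan branching enzyme, Rdh10 (0.99) and Hspa4l (0.98). For Ubxn2a they were Uhmk1 (0.99), Cemip2 (0.98) and Lrp2 (0.97). Fbxo6 was most like Asb9 (0.92), Azin2 (0.92) and the ribosomal protein gene Rplp1 (0.8997). All of these stand in the table for 3HB.

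**Figure D5:**
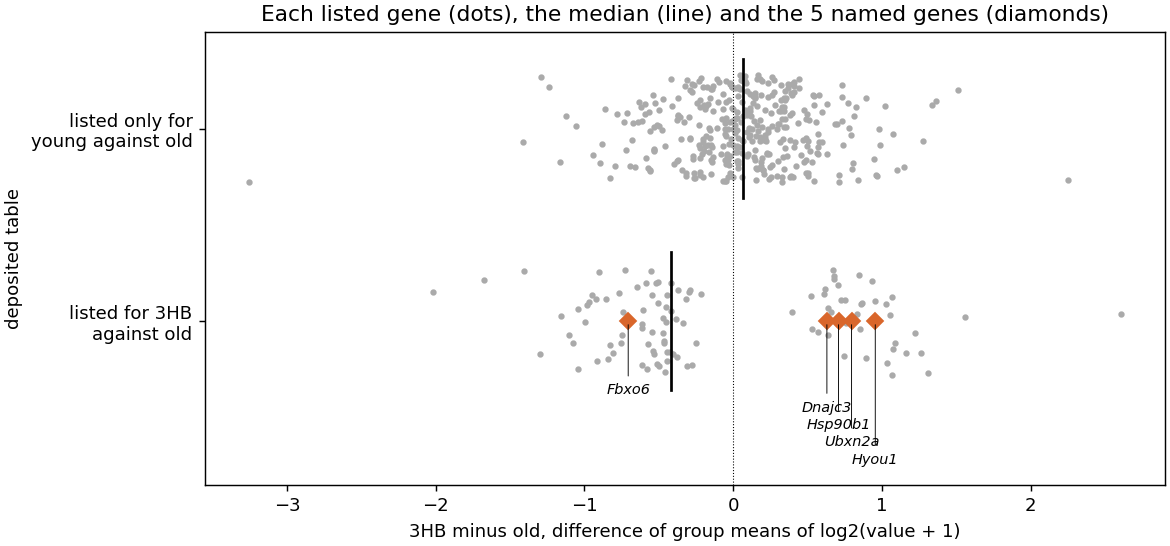
Difference between 3HB and old mice in log2(value + 1) for each of 113 genes listed for that comparison and 376 listed only for age (grey dots, spread vertically for view), with the median as a line at -0.42 and 0.07. The 5 named genes (diamonds) lie inside the range of the higher and lower genes of their table.

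Cell type markers and transcript length were looked up beside the 5 genes. In bulk kidney, fewer cells of a type and less RNA per cell cannot be told apart. The proximal tubule gene Lrp2, which encodes the endocytic receptor megalin, was at 89.42, 87.86 and 105.30 in old mice and at 148.08, 154.52 and 143.00 in 3HB mice, a log2 difference of 0.66 (standard error 0.09), while Keg1 overlapped between these groups. Plasma cells carry a large ER, and of their 15 markers 8 were listed, all for age. Summed without Igkc and Ighm, 6 of them ran from 1.56 to 12.8 in young, 68.7 to 334.4 in old and 215.7 to 234.4 in 3HB mice, and Tnfrsf17 was listed at 0 in all young mice. Young and old mice did not overlap in any of the 8 markers, and old and 3HB mice overlapped in each. Of the other markers, Lyz2 of macrophages and Cd8a of T cells overlapped between old and 3HB mice, and those of endothelium, fibroblasts and other kidney segments were not listed. Transcript length moved with direction. The longest transcripts of Hsp90b1, Hyou1, Dnajc3 and Ubxn2a were 3222, 4925, 5141 and 2696 nt and that of Fbxo6 was 1938 nt, and the medians over the table were 4665 nt for the 43 higher and 1671.5 nt for the 70 lower genes. The part of plasma cell content, tubule content and transcript length in these differences was not tested.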

How the data were processed

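Kidney RNA of 9 mice was sequenced in pairs of 150 bp reads. The processing notes of the submitters name CASAVA, HISAT2, StringTie and the build GRCm38, with no versions. The values deposited by the authors are normalized expression per gene, in a unit not given in the sources used here, limited to genes that they had called, and the calling test and threshold are not given in the sources used here. Total reads are not in the tables used here, so depth is unknown and precision rests on 3 mice per group, for which separate animals are the replicates. The 13 genes in both tables held identical values and were used once.

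Group means of log2(value + 1) were subtracted, with a standard error from both SDs and a two-sided exact permutation test over 20 splits in place of the t-tests that the study names. No fit across all genes was made, because the tables are limited to called genes. Named genes were the 5 members, genes of fixed lists and markers in a table, genes with the KEGG term, and the 3 most alike per member. Members and lists were chosen with earlier results of these data known. Promoters came from RefSeq (GRCm38.p6) and gene models from GENCODE mouse release M21 (GRCm38). Alternatives covered the pseudocount (0.1), the median of the mice, a lowest mean of 1, scaling, arithmetic means, pairing by replicate number and leaving out each mouse. The scripts passed 7 of 7 checks on simulated data. Computation ran in Python 3.11.15 with scipy 1.17.1, numpy 2.4.6 and pandas 2.3.3, and plots were drawn in matplotlib 3.10.9.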

Additional observations from a re-analysis of the deposited data

How the results depend on the processing

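The direction of 3HB against old held for each of the 5 genes under every alternative run, and 5 genes were without overlap, except under a scaling on the genes of both tables, added after seeing the data, which left 4 (Ubxn2a overlapped). Leaving out 1 mouse at a time, the median over the 5 genes ran from 0.68 to 0.71. Scaling on the median of genes listed only for age lowered Hsp90b1 to 0.66, a shift larger than its small spread. Scaling on both tables moved the median to 0.53. For old against young, the number of genes without overlap was 0 as reported, 1 (Hyou1, lower in old mice) when mice were scaled on the genes listed only for 3HB, 4 with a median of -1.35 under the scaling on both tables, and 0 to 2 when mice were left out, reaching 1 without young mouse 2 (Hsp90b1, lower) and 2 without young mouse 3 (Dnajc3 and Ubxn2a, higher). For 3HB against young, the number was 4 as reported and 3 when mice were scaled on the genes listed only for 3HB, where Hyou1 overlapped, and the median of 0.75 ran from 0.53 to 0.998 when mice were left out. The scaling on both tables reversed this comparison, to -0.83 for the median, -0.83 for Hsp90b1, -0.88 for Hyou1 and -0.83 for Dnajc3, with Ubxn2a at -0.39 and Fbxo6 at -2.23. It shifts 3HB against young by 1.58, old against young by 1.405 and 3HB against old by 0.18 on the log2 scale, since most of those genes had been called for being different at 2 months. No pairing by replicate number was seen, as correlations of deviations between same-numbered mice lay between -0.24 and 0.16 over 489 genes. With 3 mice a group this check cannot exclude a pairing. With the replicate block the medians kept the values 0.71, 0.06 and 0.75 by construction, and the exact sign-flip test cannot go below p = 0.25. Every gene passed the limit on low values, so that alternative equals the values reported. Depth is unknown, so no limit from counting could be set.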

Other observations

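Further genes with ER annotation were counted after their values had been seen. Of the 113 genes in the table for 3HB, 20 carried a GO term that names the endoplasmic reticulum, and 8 of these were higher and 12 lower with 3HB, a split close to that of the whole table (43 higher and 70 lower). Besides Hyou1, Hsp90b1, Ubxn2a and Dnajc3, the higher ones were Atp2a2, Rdh10, Lrp2 and Ncoa2. Atp2a2, the calcium pump that fills the ER, averaged 62.2 ± 7.66 in the old and 112.1 ± 7.56 in the 3HB group (SD, n = 3 each), with a log2 difference of 0.84 (standard error 0.11). Among the lower ones were Tapbp, which encodes tapasin of the peptide loading complex (-0.45, standard error 0.16), and Bok, a BCL-2 family gene (-0.47, standard error 0.06).

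Of the larger GO terms that members share, endoplasmic reticulum was attached to 12 genes in the table (6 higher and 6 lower with 3HB), cytosol to 26 (15 and 11) and cytoplasm to 37 (17 and 20). The term ATP binding, which Hsp90b1 and Hyou1 carry and which was picked after its values were seen, was attached to 13 genes in the table, and 13 of 13 were higher with 3HB, where 43 of all 113 were. These 13 genes were Hsph1, Chordc1, Hspa4l, Hyou1, Hsp90aa1, Vcp-rs, Atp2a2, Lrrk2, Hsp90b1, Gclc, Uhmk1, Hipk2 and Tars. The processed pseudogene Vcp-rs, related to the gene for p97, averaged 53.4 ± 4.82 in the old and 97.8 ± 3.68 in the 3HB group, with a log2 difference of 0.86 (standard error 0.08). Vcp itself was not analysed here, and the value of a near-copy of it is uncertain where reads are shared.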
